A study of Mus musculus with 10 samples.

Results

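The beta protocadherins are neuronal cell-adhesion genes, and 9 of them are described here in the hypothalamus of young and very old mice: Pcdhb2, Pcdhb4, Pcdhb5, Pcdhb8, Pcdhb9, Pcdhb11, Pcdhb14, Pcdhb15 and Pcdhb20. They are 9 of the 20 beta protocadherins measured and of 19505 genes in all. The 9 were chosen by name with the difference between ages and the spread over the arrays already known. The values below that come from the comparison of Old with Young are therefore a description of these genes, without a test, and support nothing beyond themselves. Each of the 9 was measured by 1 probe set, named through the platform's annotation.

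Transcript levels were determined in whole hypothalamus from male mice of the inbred strain C57BL/6J, kept with free access to feed and water under a daily light and dark cycle. The Young group held 5 arrays from mice aged 24 weeks and the Old group 5 arrays from mice aged 138 weeks. No treatment or genetic change was recorded for either group. Each sample was hybridised to a Clariom S Mouse array, which carries sets of short oligonucleotide probes, 1 set for most genes, and reads a single label. The labels do not say that every array came from a separate animal, so a spread between arrays may in part be technical.

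Clustered protocadherins lie in the alpha, beta and gamma clusters, side by side on mouse chromosome 18. Each beta gene is a single large exon with a promoter of its own, and encodes a whole protein with extracellular cadherin repeats, a membrane span and a short cytoplasmic tail. Alpha and gamma genes instead splice a variable exon to constant exons shared within their cluster. A neuron switches on a small, partly random set of these promoters, in a process that involves the insulator protein CTCF, cohesin and DNA methylation. The proteins bind the same isoform on a facing membrane, which is known to help neurites of one neuron tell themselves from those of others.

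The deposited values are on a log scale, read here as log2 from their range of 5.002 to 12.972, and every fold rests on that reading. Of the 19505 genes, 19118 shared 1 very small population SD over all arrays, 1e-05 log2 (tolerance 1%). Such values give a level but cannot show the size of a difference. A gene was called varying where that SD was at least 0.01, which 276 genes (1.415%) reached. How far differences of varying genes were also shrunk before deposit is unknown, so folds describe the deposited values. Array medians lay between 6.7783 and 6.7827 log2, and no 2 arrays were identical.

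All 8 beta protocadherins whose values varied were higher in the Old hypothalamus, by 0.23 to 0.59 log2 or 1.17-fold to 1.51-fold, with a median difference of 0.31 (1.24-fold). In each of the 8, every Old array lay above every Young array. Such a separation with Old higher was seen in 20.7% of the varying genes and in 0.836% of all genes. Over all genes it was found in 163, of which 57 varied, so most of that share comes from genes with a level only. Because the members were chosen on this contrast, nothing is read from the 8 separated members. The ninth member, Pcdhb5, had a level of 6.53 log2 and an SD of 3.53e-05 over the 10 arrays, so its values show no size of a difference. Since the RNA came from whole tissue, a change in the number of cells that express a gene and a change in RNA per cell cannot be told apart.

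**Figure D1:**
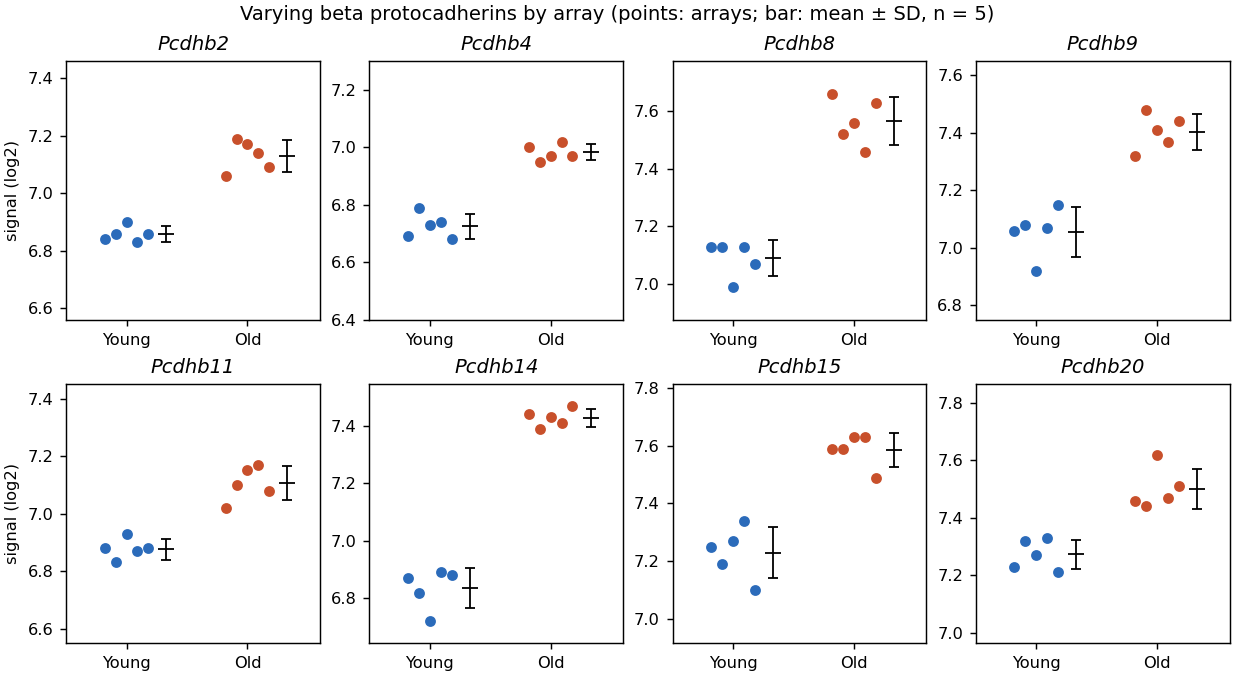
Signal in log2 of the 8 varying beta protocadherins in the 5 Young (blue) and 5 Old (orange) arrays, with the mean ± SD of each group in black. Each panel spans the same number of log2 units, and in every panel the Old points lie above the Young points, with the widest gap for Pcdhb14.

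Pcdhb14 had the largest difference of the members. Its signal in Young 1 to Young 5 was 6.87, 6.82, 6.72, 6.89 and 6.88 log2. In Old 1 to Old 5 it was 7.44, 7.39, 7.43, 7.41 and 7.47 log2. The Old arrays were tightly grouped and none came near the Young range, where Young 3 was the lowest. The means were 6.84 ± 0.071 and 7.43 ± 0.030 log2 (SD, n = 5), and Old exceeded Young by 0.59 (SE 0.034) or 1.51-fold. Between the nearest Old and Young arrays the ratio was 1.42-fold, and between the farthest it was 1.68-fold. Ranked by signed difference, Pcdhb14 was gene 14 of the 276 varying genes.

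Pcdhb8 came next. It stood at 7.13, 7.13, 6.99, 7.13 and 7.07 log2 in Young 1 to Young 5. In Old 1 to Old 5 it stood at 7.66, 7.52, 7.56, 7.46 and 7.63 log2. Young 3 was again the lowest of its group, and the Old arrays spread more widely than those of Pcdhb14, with Old 4 the lowest. The means of 7.09 ± 0.063 and 7.57 ± 0.084 log2 (SD, n = 5) differed by 0.48 (SE 0.047) or 1.39-fold. Pcdhb8 was gene 20 of the 276 by difference. Without Young 3 and Young 5 together the difference was 0.44.

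Pcdhb15, the next gene after Pcdhb14 along the cluster, had 7.25, 7.19, 7.27, 7.34 and 7.10 log2 in Young 1 to Young 5. Its Old values were 7.59, 7.59, 7.63, 7.63 and 7.49 log2. Young 5 and Old 5 were the lowest of their groups, which did not overlap. The means were 7.23 ± 0.089 and 7.59 ± 0.058 log2 (SD, n = 5), and Old exceeded Young by 0.36 (SE 0.047) or 1.28-fold. The Young SD of 0.089 was the largest of any member in either group.

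Pcdhb9, which follows Pcdhb8 along the cluster, had 7.06, 7.08, 6.92, 7.07 and 7.15 log2 in Young 1 to Young 5. The Old arrays had 7.32, 7.48, 7.41, 7.37 and 7.44 log2. Young 3 was the lowest Young array, as for Pcdhb8 and Pcdhb14, while Young 5 was the highest. The means of 7.06 ± 0.087 and 7.40 ± 0.062 log2 (SD, n = 5) differed by 0.35 (SE 0.048) or 1.27-fold.

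Pcdhb2 and Pcdhb4, towards the start of the cluster, had smaller differences with small spreads. Pcdhb2 was at 6.84, 6.86, 6.90, 6.83 and 6.86 log2 in Young 1 to Young 5 and at 7.06, 7.19, 7.17, 7.14 and 7.09 log2 in Old 1 to Old 5. Here Young 3 was the highest Young array, unlike for Pcdhb8, Pcdhb9 and Pcdhb14. The difference of Pcdhb2 was 0.27 (SE 0.027), from 6.86 ± 0.027 to 7.13 ± 0.055 log2 (SD, n = 5), or 1.21-fold. Pcdhb4 was at 6.69, 6.79, 6.73, 6.74 and 6.68 log2 in Young 1 to Young 5 and at 7.00, 6.95, 6.97, 7.02 and 6.97 log2 in Old 1 to Old 5. Its Old arrays lay within 0.069 log2 of each other, the narrowest range of any member in either group. The means of 6.72 ± 0.044 and 6.98 ± 0.027 log2 (SD, n = 5) differed by 0.26 (SE 0.023) or 1.20-fold.

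Pcdhb11 and Pcdhb20 had the smallest differences of the varying members. Pcdhb11 was at 6.88, 6.83, 6.93, 6.87 and 6.88 log2 in Young 1 to Young 5 and at 7.02, 7.10, 7.15, 7.17 and 7.08 log2 in Old 1 to Old 5. Its groups came closest of all 8, with 0.091 log2 (1.07-fold) between Old 1 and Young 3. Its difference was 0.23 (SE 0.031) or 1.17-fold, from 6.88 ± 0.036 to 7.11 ± 0.059 log2 (SD, n = 5). Pcdhb20 was at 7.23, 7.32, 7.27, 7.33 and 7.21 log2 in Young 1 to Young 5 and at 7.46, 7.44, 7.62, 7.47 and 7.51 log2 in Old 1 to Old 5. Old 3 was the highest array, and the group means of 7.27 ± 0.051 and 7.50 ± 0.069 log2 (SD, n = 5) differed by 0.23 (SE 0.038) or 1.17-fold.

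In order of difference the members were Pcdhb14, Pcdhb8, Pcdhb15, Pcdhb9, Pcdhb2, Pcdhb4, Pcdhb11 and Pcdhb20. The differences of Pcdhb14 and Pcdhb8 stood 0.11 log2 apart (SE 0.036), and those of Pcdhb8 and Pcdhb15 0.12 (SE 0.073). Other neighbours in the order were closer, with 0.078 (SE 0.052) from Pcdhb9 to Pcdhb2 and 0.0032 (SE 0.044) from Pcdhb11 to Pcdhb20. Since the order was made from these same differences, the steps are a description. Set against the pooled SD within groups, the difference was largest for Pcdhb14 (10.9 SDs) and smallest for Pcdhb20 (3.74 SDs).

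**Figure D2:**
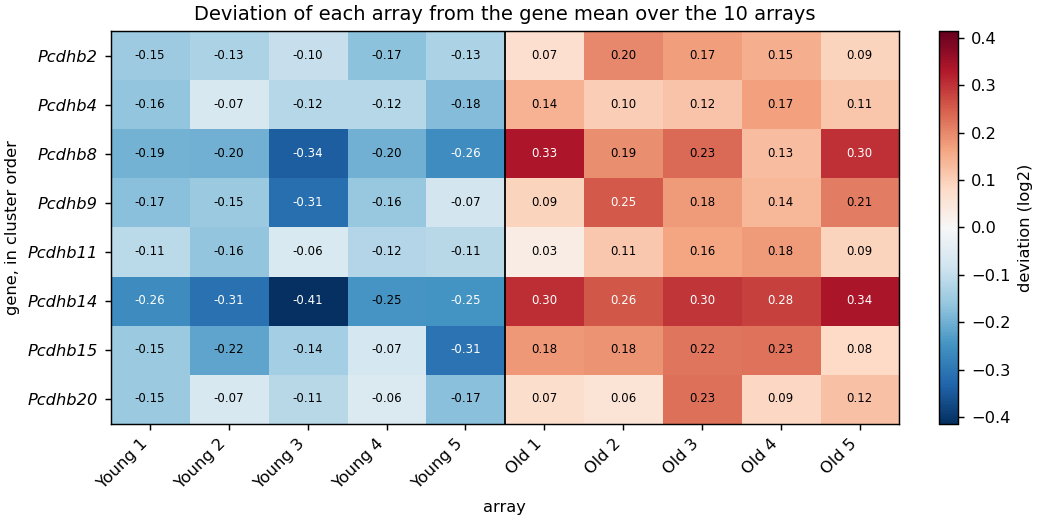
Deviation in log2 of each of the 10 arrays (columns) from the gene's mean over all arrays, for the 8 varying beta protocadherins (rows, in cluster order); red is above and blue below the mean. Every Young cell is below 0 and every Old cell above it, while the array with the strongest deviation differs from gene to gene.

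Within an age group no array was highest or lowest for all members. Among the Old arrays, Old 4 was the highest for 3 members (Pcdhb4, Pcdhb11 and Pcdhb15), Old 2 for 2 members (Pcdhb2 and Pcdhb9), and Old 1, Old 3 and Old 5 for 1 each. Old 1 was the lowest of its group for Pcdhb2, Pcdhb9 and Pcdhb11, yet the highest for Pcdhb8. Among the Young arrays, Young 3 was the lowest for Pcdhb8, Pcdhb9 and Pcdhb14 and the highest for Pcdhb2 and Pcdhb11. Young 5 was the lowest for Pcdhb4, Pcdhb15 and Pcdhb20 and the highest for Pcdhb9. Averaged over the 8 members, the arrays lay between 6.97 and 7.02 log2 in Young and between 7.32 and 7.37 log2 in Old. The SD of that average was 0.022 in Young and 0.017 in Old (n = 5), and the SD of single members ran from 0.027 to 0.089; averaging over genes lowers an SD by itself.

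Young 3 and Young 5 stood apart from the other arrays for transcripts known from other tissues. Young 5 was highest for all 5 varying markers of choroid plexus out of 6 measured, with Ttr, the transthyretin of that tissue, at 12.44 log2 against at most 7.97 elsewhere. The summed signal of that marker list ran from 9.35 to 12.70 log2 in Young and from 9.31 to 9.54 in Old. Young 3 was highest for both varying liver markers of 3 measured, Alb at 6.87 log2 (at most 6.34 elsewhere) and Mup2 at 7.35 (at most 6.39). With both arrays left out, the differences of the 8 members were 0.21 to 0.57 log2. Leaving out any single array gave 0.56 to 0.60 for Pcdhb14, 0.45 to 0.50 for Pcdhb8 and 0.20 to 0.24 for Pcdhb20.

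**Figure D3:**
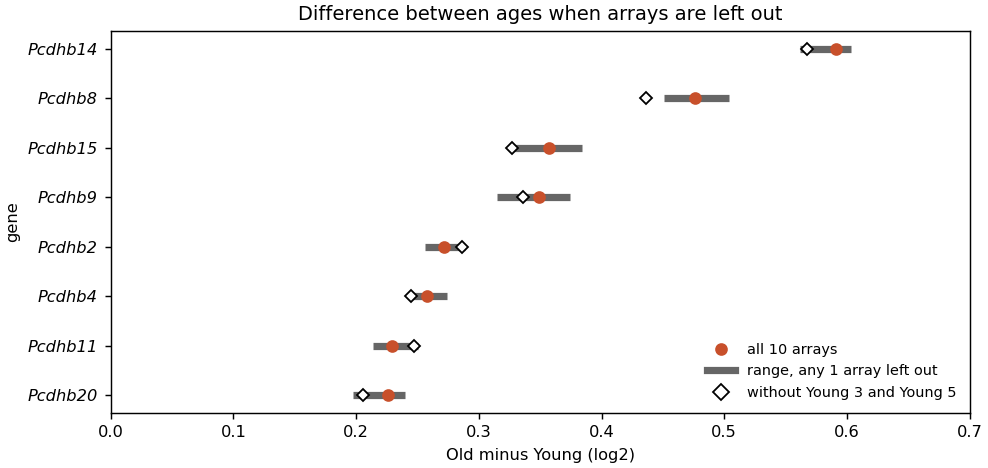
Old minus Young difference in log2 of the 8 varying beta protocadherins with all 10 arrays (circles), the range when any 1 array is left out (grey bars), and without Young 3 and Young 5 (diamonds). Every value stays above 0, which the separation of the groups fixes in advance, and Pcdhb14 and Pcdhb8 remain the members with the largest differences.

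Along the cluster, as RefSeq orders it in assembly GRCm38.p6, the varying members were not one block. Pcdhb8 and Pcdhb9 are neighbours, as are Pcdhb14 and Pcdhb15, and these 4 genes had the 4 largest differences, although Pcdhb9 exceeded Pcdhb2, the next in order, by only 0.078 log2 (SE 0.052). Pcdhb2, Pcdhb4, Pcdhb11 and Pcdhb20 each stood between genes whose values did not vary or were not analysed here. No source used here names the assembly behind the array, so the table served for the order of genes and not for positions.

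**Figure D4:**
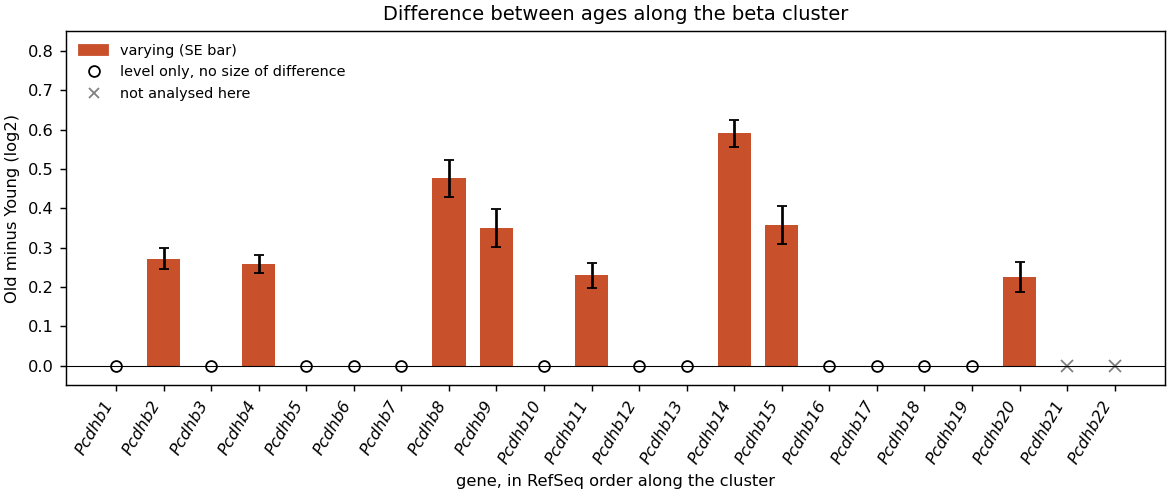
Old minus Young difference in log2 (bars, with SE) for the 22 beta protocadherins of RefSeq in their order along the cluster. Open circles mark the 12 measured genes with a level only, drawn at 0 for place and not as a difference, and crosses mark the 2 genes not analysed here; the 2 pairs of neighbours with bars are Pcdhb8 with Pcdhb9 and Pcdhb14 with Pcdhb15.

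The other 11 measured beta protocadherins did not vary: Pcdhb1, Pcdhb3, Pcdhb6, Pcdhb7, Pcdhb10, Pcdhb12, Pcdhb13, Pcdhb16, Pcdhb17, Pcdhb18 and Pcdhb19. Their levels ran from 5.75 (Pcdhb1) to 7.64 log2 (Pcdhb17), and their SD over the arrays was at most 1.00e-05 log2. Nothing lay near the threshold of 0.01: the nearest member above it, Pcdhb11, had an SD of 0.123, and the member below it, Pcdhb5, had 3.53e-05. Whether age altered these 11 genes cannot be seen in the deposited values. Pcdhb21, Pcdhb22 and the alpha and gamma protocadherins were not analysed here. Beta protocadherins are alike in sequence, and a probe set may take signal from another member.

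Genes linked to the cluster were compared between ages with limma over all 19505 genes, where 37 genes (0.190%) passed higher and 6 (0.0308%) lower in Old at an adjusted p under 0.05. With quantile normalization the counts were 546 higher and 7633 lower, and 8061 of those calls were genes that did not vary in the deposited values. Over 5 lists of 85 genes in all (the remaining beta genes, non-clustered protocadherins, regulators, cytoplasmic partners and neighbouring genes), limma called 0 higher and 0 lower, with 7 (8.24%) at an unadjusted p under 0.05, against 1331 (6.82%) of all genes. Only 1 of the 85 varied, so for the others this says nothing of a change with age. Quantile normalization called 7 of the 11 remaining beta genes lower, with differences of the 11 between -0.0035 and 0.0002 log2. All 7 had a level only in the deposited values, so these differences say nothing of a change with age.

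The single varying gene of those lists was Pcdh7, a non-clustered protocadherin of the delta group, in a list of 11 measured genes. It was at 9.91, 9.92, 9.94, 9.96 and 9.95 log2 in Young 1 to Young 5 and at 9.78, 9.87, 9.81, 9.94 and 9.91 log2 in Old 1 to Old 5. Its groups overlapped, with Old 1 and Old 3 the lowest arrays. The difference was -0.07 (SE 0.029), and its adjusted p in limma was 0.688, with an exact permutation p of 0.0317 (2-sided). It did not pass.

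The 24 measured regulators, among them Ctcf and Rad21 (a cohesin subunit), the chromatin protein gene Smchd1 and the DNA methyltransferase gene Dnmt3b, had levels of 5.84 to 9.84 log2 and a median difference of 1.4e-06 log2. All 24 had a level only. The same held for the 21 cytoplasmic partners, such as the kinase gene Fyn and the actin regulator gene Wasf1, at 6.47 to 11.17 log2. It held too for the 20 measured genes nearest to the cluster, 10 on each side, which include Taf7, a general transcription factor gene that lies between the beta and gamma clusters, and the histone deacetylase gene Hdac3. Over all genes, most of which had a level only, the median difference was -8.7e-08 log2. Neither this median nor that of the regulators measures a change with age.

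Markers of other cell types were set beside the beta protocadherins. Of 8 neuronal markers, among them Rbfox3 and Snap25, 0 varied, so the deposited values cannot show whether the neuronal share of the RNA differed between ages. Of 7 measured microglial markers 2 varied, C1qa and C1qb, both higher in Old by 0.34 (SE 0.056) and 0.29 log2 (SE 0.048). Their adjusted p was 0.0719 each in limma over all genes. When limma was fitted to the 276 varying genes alone it was 0.00146 and 0.00148, and both passed. That fit called 68 of the 276 genes higher and 31 lower, so passing it was common. The 276 were picked by their SD over these same arrays, which includes any step between ages. Passing that fit is therefore no added support for a difference, here or below. The summed microglial signal ran from 10.48 to 10.52 log2 in Young and from 10.56 to 10.66 in Old. The other microglial markers had a level only, so this step repeats C1qa and C1qb. It says nothing of the share of microglia in the RNA. Of 6 astrocyte markers 3 varied. Gfap was higher in Old by 0.44 (SE 0.065, adjusted p = 0.0396 in limma, and 0.00061 among the varying genes alone). Gja1 was at -0.14 (SE 0.043, adjusted p = 0.525, and 0.0353 among the varying genes alone). Slc1a2 was at 0.00 (SE 0.026, adjusted p = 0.989, and 0.912 among the varying genes alone). Gfap no longer passed over all genes without Young 1, Young 2, Young 3, Young 4, Old 1, Old 2, Old 3 or Old 4, each left out alone (adjusted p from 0.094 to 0.142 in limma). Its difference stayed between 0.41 (without Old 4) and 0.49 log2 (without Young 5). The summed astrocyte signal ran from 12.15 to 12.18 log2 in Young and from 12.13 to 12.24 in Old, and its spread likewise comes from the 3 varying markers. Array signals have no true 0, and no marker was listed at 0. The part of these cell types in the values of the beta protocadherins was not tested.

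Among markers of hypothalamic neurons, all 11 were measured, at 6.23 to 10.56 log2, and 7 varied. Avp, which encodes vasopressin, was higher in Old by 0.62 (SE 0.13, adjusted p = 0.182 in limma), and Sst, which encodes somatostatin, was at -0.16 (SE 0.045, adjusted p = 0.465). Over all genes limma called 0 of the 11, with 3 (27.3%) at an unadjusted p under 0.05, against 6.82% of all genes. These shares come from unlike sets, since 7 of the 11 varied against 1.415% of all genes. No excess is read from them. When limma was fitted to varying genes only, Avp and Sst passed, with adjusted p of 0.00353 and 0.0272. Npy, higher in Old by 0.20 (SE 0.078), did not pass in that fit (adjusted p = 0.0707 in limma). Nor did Hcrt, Pmch, Trh and Hdc, with adjusted p from 0.187 to 0.939. That fit called 68 of the 276 varying genes higher and 31 lower. Since those genes were picked by their SD over these same arrays, passing it is no added support for a difference.

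The genes whose profile over the 10 arrays lay nearest to the mean profile of the 8 varying members were Ly86, Fcgr2b, Lag3, Irak3 and Bbs9. The measure was the root mean square difference of log2 values, each gene centred on its own mean, over the 268 other varying genes. It was 0.049 log2 for Ly86, a partner of the toll-like receptor relative RP105, and 0.064 for Fcgr2b, an inhibitory Fc receptor of myeloid and B cells. It was 0.069 for the immune checkpoint gene Lag3, 0.071 for Irak3, an inhibitor of toll-like receptor signalling, and 0.077 for Bbs9, a subunit of the ciliary BBSome complex. The median over the 268 genes was 0.214. The likeness includes the step between ages, on which the members were chosen. Ly86 was at 7.99 ± 0.031 log2 in the Young arrays and 8.32 ± 0.073 in the Old ones (SD, n = 5 each), and Fcgr2b at 6.37 ± 0.074 and 6.76 ± 0.030. Against the mean of the other members, single members lay at 0.064 (Pcdhb2 and Pcdhb4) to 0.149 log2 (Pcdhb14). These values cannot be ranked against those of the 5 genes, which were the nearest of 268 searched, while the members were not picked for nearness. The measure also grows with any mismatch in the step between ages, which was 0.33 log2 for Ly86 and 0.59 for Pcdhb14.

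**Figure D5:**
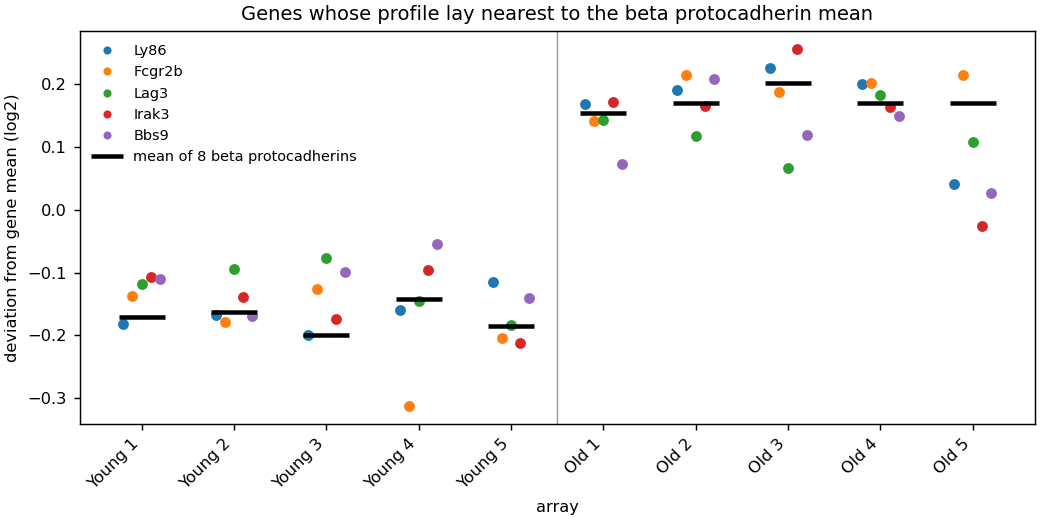
Deviation in log2 from the gene's own mean in each of the 10 arrays, for Ly86, Fcgr2b, Lag3, Irak3 and Bbs9 (points) and for the mean of the 8 varying beta protocadherins (black bars). All 5 genes are below 0 in every Young array; in Old 5, Irak3 is at -0.03 while the protocadherin mean is at 0.17.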

How the data were processed

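Messenger RNA of 10 hypothalamus samples was measured on Clariom S Mouse arrays from 100 ng of total RNA, per the labels' protocols. The deposited log values, read here as log2, were already 1 number per probe set and array. How the authors corrected background, normalized and summarised them is not stated in the sources used here. Of 22206 probe sets, 19572 carried 1 gene symbol, 0 several, and 2634 were unnamed here. All 19572 gene IDs matched RefSeq (GRCm38.p6), and 0 symbols changed. The probe set with the highest mean was kept per gene. Samples were grouped by title. Old was compared with Young for 19505 genes with limma 3.58.1 in R 4.3.3 (lmFit, eBayes, 2-sided, Benjamini-Hochberg, threshold 0.05). The code was tried on simulated data in which all genes had 1 common SD, far above that of most deposited genes. That trial therefore says nothing of how the fit behaves on the deposited values. Members got means, SDs and differences only; their SE comes from the SDs of both groups. A summed marker signal is the log2 of the sum of linear values.

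The members and gene lists were chosen with earlier results of these data known. Named genes were the members, the other measured beta protocadherins, up to 4 genes per list past the threshold, otherwise up to 3 varying genes, and the 5 genes of most similar profile. Marker genes, and list genes named without a value of their own, were chosen outside that rule. Alternatives were quantile normalization, median centring, the dimmest 33.3% of genes left out, a trended robust prior, varying genes only, group medians, a replicate block and arrays left out. The number of arrays limits the precision.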

Additional observations from a re-analysis of the deposited data

How the results depend on the processing

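The differences of the 8 varying members moved by at most 0.044 log2 (Pcdhb8) and kept their direction under every alternative tried for them. These were quantile normalization, median centring, group medians, and arrays left out singly or Young 3 with Young 5. For group medians and arrays left out, the separation of the groups fixes the direction. Array medians lay between 6.7783 and 6.7827 log2, so median centring could hardly move a difference. The kept direction is therefore no support for the differences. Each member has 1 probe set, so the planned use of another could not be run. Over all genes, 37 passed higher and 6 lower. Quantile normalization gave 546 and 7633, a trended robust prior 10 lower, the varying genes alone 68 and 31, and the arrays without Young 3 and Young 5 22 and 2. With any 1 array left out the counts were 25 to 37 higher and 4 to 9 lower. In the 5 linked lists, quantile normalization called 42 genes lower where 0 were called otherwise; none of the 42 varied in the deposited values. The replicate block, which sets the arrays of each number against each other, gave 10 higher and 1 lower over all genes. The numbers come from the titles and are not known to pair the samples. Correlations of same-number deviations ran from -0.22 to 0.28 over the varying genes. They cannot show whether arrays of the same number were handled together. With 1 array of each number per group, the block cannot alter a difference of means, so the members' differences stayed, by construction, at 0.59 for Pcdhb14, 0.48 for Pcdhb8, 0.36 for Pcdhb15, 0.35 for Pcdhb9, 0.27 for Pcdhb2, 0.26 for Pcdhb4 and 0.23 for Pcdhb11 and Pcdhb20.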
